A study of Mus musculus with 8 samples.

Results

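A set of 10 genes of the CC chemokine system were followed in mouse skin exposed to house dust mite allergens (HDM), namely the ligand genes Ccl8, Ccl11, Ccl24, Ccl17, Ccl22 and Ccl20 and the receptor genes Ccr3, Ccr4, Ccr7 and Ccr8. They were taken by symbol as the chemokines and receptors of allergic inflammation and dendritic cell movement. All 10 were among the 22740 protein-coding genes with counts, and all 10 were among the 15163 genes that passed the filter on low counts. Bulk RNA sequencing was done on skin of 8 female BALB/c mice, 1 library per mouse. All 8 mice were kept on a low-fibre diet. Baseline CTL mice (2 mice) drank water and received no HDM, and baseline butyrate mice (2 mice) had 400 mM sodium butyrate in their drinking water instead. Lesional CTL mice (2 mice) drank water and lesional butyrate mice (2 mice) drank 400 mM sodium butyrate from 2 weeks before allergen and throughout, and both received 15 µg of HDM on shaved dorsal skin under an occlusive patch 4 times over 2 weeks, starting at 6 to 8 weeks of age. Baseline butyrate mice followed the same butyrate scheme without allergen, and the same age of 6 to 8 weeks is recorded for all baseline mice. Baseline skin was collected when the butyrate period ended, and whether it had been shaved or patched is not stated for these samples. The first number of the labels also separates the baseline from the lesional mice, so HDM, handling, time of collection and the set of mice cannot be told apart.

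Chemokines are small secreted proteins that draw leukocytes along a gradient through receptors that couple to G proteins. CCL11 and CCL24 are the eotaxins, which act through CCR3 on eosinophils and basophils. CCL8 of the mouse acts through CCR8, CCL17 and CCL22 through CCR4, and these receptors are found on T helper 2, regulatory and skin-homing T cells. CCL20 is made by keratinocytes under IL-17 and TNF and attracts cells that carry CCR6. CCR7 takes activated dendritic cells from the skin along CCL21 and CCL19 to the draining lymph node. In whole skin, fewer cells of a type and less RNA per cell cannot be told apart.

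The genes lie on 5 chromosomes of the mouse genome (GRCm38), and each is a protein-coding gene that overlaps no other annotated gene on either strand. Ccl11 (ENSMUSG00000020676) at chr11:82057823-82062955 and Ccl8 (ENSMUSG00000009185) at chr11:82115185-82116799 are close neighbours. Ccl22 (ENSMUSG00000031779) at chr8:94745590-94751699 and Ccl17 (ENSMUSG00000031780) at chr8:94810453-94812036 likewise share a region of chromosome 8. The remaining ligand genes are Ccl24 (ENSMUSG00000004814) at chr5:135569937-135573049 and Ccl20 (ENSMUSG00000026166) at chr1:83116766-83119167. The receptor genes Ccr3 (ENSMUSG00000035448, chr9:124021972-124031689), Ccr4 (ENSMUSG00000047898, chr9:114490316-114504916) and Ccr8 (ENSMUSG00000042262, chr9:120092114-120094906) share chromosome 9, and Ccr7 (ENSMUSG00000037944) is at chr11:99144196-99155077.

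Promoter sequence was held for 7 of the 10 genes (RefSeq, GRCm38.p6). Those of Ccl8, Ccl17, Ccl22 and Ccl20 are shown, the ligand genes whose lesional mice lay above the baseline mice both with and without butyrate. Each is read from the plus strand, 5′ to 3′, and ends at the base before the annotated gene start. Capitals mark matches on either strand to 3 strings, TTCNNNGAA and TTCNNNNGAA, which are the spacings of sites for STAT proteins, and GGGNNNNNCC, a loose form of NF-kB sites.
Ccl8 (chr11:82114935-82115184, + strand): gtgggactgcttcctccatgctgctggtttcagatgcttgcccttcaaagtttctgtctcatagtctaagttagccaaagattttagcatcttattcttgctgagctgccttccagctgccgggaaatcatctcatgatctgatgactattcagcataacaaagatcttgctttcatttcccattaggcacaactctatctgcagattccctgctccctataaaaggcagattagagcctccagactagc
Ccl17 (chr8:94810203-94810452, + strand): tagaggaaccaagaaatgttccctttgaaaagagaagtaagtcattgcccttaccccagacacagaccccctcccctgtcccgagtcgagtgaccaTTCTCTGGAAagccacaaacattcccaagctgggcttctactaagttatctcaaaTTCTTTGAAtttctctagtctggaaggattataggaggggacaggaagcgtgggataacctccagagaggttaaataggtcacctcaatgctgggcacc
Ccl22 (chr8:94745434-94745589, + strand): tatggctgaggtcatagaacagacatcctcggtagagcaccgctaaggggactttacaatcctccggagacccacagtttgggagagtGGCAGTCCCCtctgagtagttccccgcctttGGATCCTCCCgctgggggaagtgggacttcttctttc
Ccl20 (chr1:83116516-83116765, + strand): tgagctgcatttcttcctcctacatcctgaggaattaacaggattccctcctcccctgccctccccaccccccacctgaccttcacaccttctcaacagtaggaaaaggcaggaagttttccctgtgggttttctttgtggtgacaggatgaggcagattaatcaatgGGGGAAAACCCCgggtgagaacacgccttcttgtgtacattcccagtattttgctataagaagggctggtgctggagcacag
The window of Ccl17 held 1 TTCNNNGAA, which begins 99 bases before the start, and 1 TTCNNNNGAA, which begins 154 bases before it. Over the 250 bases before the start, TTCNNNGAA was found in 7.02% and TTCNNNNGAA in 5.85% of 32851 mouse promoters, and neither was found in the other 6 promoters of the set. GGGNNNNNCC was found in 45.8% of all promoters, so a match to it sets a gene little apart. In Ccl20 it matched 3 times in overlap within the run GGGGAAAACCCC. In Ccl22 it matched at 68 and 37 bases before the end of the printed window. Ccr3 and Ccr8 also had matches to it, and Ccl8, Ccl17 and Ccr4 had none. The window of Ccl8 held no match to any of the 3 strings. These letter matches are a description of the windows and are not evidence of binding.

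Values are given as CPM, read counts scaled to the size and composition of the library, so that levels of 1 gene can be compared across mice. Totals were between 18004136 and 21085544 counts per library, and 3 counts, taken as the floor of measurement, were 0.138 to 0.169 CPM. The mice within a group were close in baseline CTL skin, where 0 of the 10 genes differed over 2-fold between the mice, and far apart in baseline butyrate skin, where 8 of the 10 did. In lesional CTL skin 4 of the 10 genes differed over 2-fold between the mice, and in lesional butyrate skin 1 did. Over all 14196 genes with a mean of at least 1 CPM these shares were 1.94% in baseline CTL, 26.5% in baseline butyrate, 1.43% in lesional CTL and 4.81% in lesional butyrate skin, so the lesional CTL mice were further apart for these genes than for genes at large. Baseline butyrate replicate 3 was the lower of its pair for all 10 genes, and its summed markers of macrophages (372 CPM against 1653 CPM), epidermal keratinocytes (9056 against 17710 CPM) and skeletal muscle (8971 against 41870 CPM) were also the lower ones. Skin was recognisable in every library by its keratinocyte genes, which summed to at least 9056 CPM. Comparisons that rest on baseline butyrate skin are the least certain.

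Per kilobase of exon, which allows levels of different genes to be compared, Ccl8 led in every group. In lesional CTL skin it stood at 760 ± 186 CPM per kb (mean ± SD, n = 2 mice), followed by Ccl11 at 66.3 ± 23.5. Ccl22 (10.6 ± 1.71), Ccl24 (8.90 ± 4.49) and Ccl20 (5.69 ± 3.75 CPM per kb) came next, each overlapping its neighbour in this order. Ccl17 stood at only 1.55 ± 0.726 CPM per kb, and was below Ccl22, the other CCR4 ligand gene, in all 8 mice. Among the receptors Ccr7 was at 3.90 ± 0.135, Ccr8 at 1.74 ± 1.4, Ccr4 at 1.31 ± 0.508 and Ccr3 at 0.788 ± 0.422 CPM per kb, and the last 3 overlapped. In lesional butyrate skin the order of the receptors was Ccr4 (3.02 ± 0.0654), Ccr7 (1.81 ± 0.10), Ccr8 (1.53 ± 0.481) and Ccr3 (0.180 ± 0.00692 CPM per kb), where Ccr7 and Ccr8 overlapped and Ccr4 and Ccr3 stood apart from their neighbours among the receptors.

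The first question was how these genes differed between HDM-exposed and unexposed skin. Averaged over CTL and butyrate-treated mice, 6 of the 10 genes rose, namely Ccl8, Ccl17, Ccl22, Ccl20, Ccr3 and Ccr7, while 3.38% of all tested genes did. A gene was called when it passed a false discovery rate (FDR) of 0.1 and a fold-change of 2 in edgeR's quasi-likelihood test over all 8 mice. Ccl20 rose most, by a log2 fold change of 2.85 ± 0.51 (SE, FDR = 0.0346 by edgeR), and Ccr7 had the lowest FDR (log2 fold change 2.04 ± 0.31, FDR = 0.0239). Ccl11, Ccl24, Ccr4 and Ccr8 did not pass. In CTL mice alone 3 of the 10 genes rose (Ccl8, Ccr3 and Ccr7), against 2.37% of all tested genes, and 7 of 10 had both lesional mice above both baseline mice, against 36.7% of all genes. In butyrate-treated mice alone 0 of the 10 genes were called, against 0.35% of all genes, and 6 of 10 had both lesional mice above both baseline mice, against 16.4% of all genes. The median log2 fold change of the 10 genes was 1.49 in CTL and 1.5 in butyrate-treated mice, beside -0.015 and -0.045 over all tested genes. The median in butyrate-treated mice was 2.70 without baseline butyrate replicate 1 and 0.80 without replicate 3, and limma-voom gave 1.43 in CTL and 1.77 in butyrate-treated mice, so the likeness of the medians rests on both baseline butyrate mice and on the test.

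These counts depended on which mice entered the fit. Without the baseline butyrate mice, 7 of the 10 genes were called in CTL mice (Ccl8, Ccl17, Ccl22, Ccl20, Ccr3 and Ccr7 higher, Ccr4 lower), against 12.4% of all genes. Leaving out either lesional CTL mouse, either baseline CTL mouse or either lesional butyrate mouse brought the count in CTL mice to 0. The calls in butyrate-treated mice also moved when either baseline butyrate mouse was left out. Without baseline butyrate replicate 1 the share of all genes called rose too. That fit rests on a lone baseline butyrate mouse, so its calls are not read further. The average count fell without any 1 of the 4 CTL mice or without either lesional butyrate mouse, and rose without baseline butyrate replicate 1. No share of all genes is set beside these changes, so they are not read as particular to the 10 genes.

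The HDM response of single genes in butyrate-treated mice moved with the same pair of mice. Without baseline butyrate replicate 1, the log2 fold change was 3.06 for Ccl8, 3.47 for Ccl22, 3.26 for Ccl17, 3.75 for Ccl20, 2.76 for Ccr7, 2.63 for Ccr8 and 1.84 for Ccr4. Without replicate 3 it was 1.005 for Ccl8, 1.89 for Ccl22, 1.28 for Ccl17, 3.03 for Ccl20, 1.59 for Ccr7, 0.60 for Ccr8 and -0.15 for Ccr4. For Ccr3 it was 0.048 without replicate 1 and -0.52 without replicate 3, for Ccl11 1.22 and -0.133, and for Ccl24 2.11 and -0.175. Ccl8, Ccl22, Ccl17, Ccl20, Ccr7 and Ccr8 stayed positive in both fits, while Ccl11, Ccl24, Ccr3 and Ccr4 changed sign between them.

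**Figure D1:**
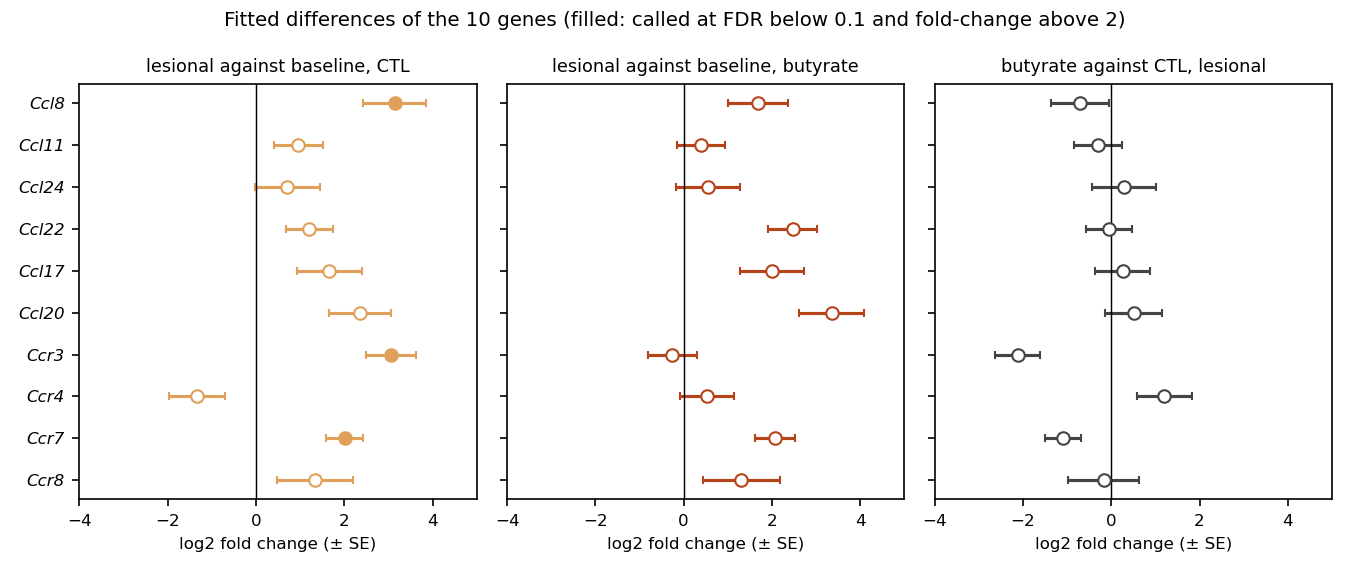
Log2 fold change with its standard error (x axis, edgeR) of the 10 genes (y axis) for HDM-exposed against baseline skin in CTL mice, the same in butyrate-treated mice, and butyrate against CTL in lesional skin, with 2 mice per group. Filled points passed FDR below 0.1 and fold-change above 2, which 3 genes did in CTL mice and none in the other panels.

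Among the ligands, Ccl8 was the most abundant and had the largest fitted fold in CTL mice. Its values were 35.3 and 53.0 CPM in baseline CTL skin and 456 and 321 CPM in lesional CTL skin. Baseline butyrate skin had 119 and 28.1 CPM and lesional butyrate skin 163 and 314 CPM. Lesional mice lay above baseline mice under both treatments, and both lesional butyrate mice lay below both lesional CTL mice, though 314 and 321 CPM are nearly the same value. The mean was 8.80-fold higher in lesional than in baseline CTL skin (log2 fold change 3.14 ± 0.72, FDR = 0.0948 by edgeR) and 3.24-fold higher with butyrate (1.69 ± 0.68, FDR = 0.37). The difference between these responses was -1.44 ± 0.94 on the log2 scale and did not pass the test (FDR = 0.84 by edgeR). It was -0.075 without baseline butyrate replicate 1 and -2.13 without replicate 3.

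The eotaxin genes Ccl11 and Ccl24 were less changed. Ccl11 was at 28.9 and 45.0 CPM in baseline CTL, 63.7 and 24.6 CPM in baseline butyrate, 53.7 and 89.7 CPM in lesional CTL skin and 39.2 and 77.0 CPM in lesional butyrate skin. Its groups were apart between lesional and baseline CTL skin (log2 fold change 0.96 ± 0.55, FDR = 0.375 by edgeR) and overlapped in every other comparison of 2 groups. Ccl24 was at 7.61 and 6.55 CPM in baseline CTL, 15.9 and 3.23 CPM in baseline butyrate, 7.42 and 15.6 CPM in lesional CTL skin and 10.8 and 17.4 CPM in lesional butyrate skin, and its groups overlapped in all comparisons. The mice of baseline butyrate skin were the widest apart for both genes. Ccl7, another ligand of CCR3, was not called in a comparison, with 34.6 and 56.6 CPM in lesional CTL skin and 27.7 and 34.1 CPM in lesional butyrate skin. Ccl26, the remaining eotaxin gene, was at most 0.0954 CPM in any mouse.

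The CCR4 ligand genes, which dendritic cells and keratinocytes express, were higher in lesional skin whether or not butyrate was given. Ccl22 was at 14.1 and 7.27 CPM in baseline CTL, 6.43 and 2.10 CPM in baseline butyrate, 21.8 and 27.4 CPM in lesional CTL skin and 24.7 and 22.7 CPM in lesional butyrate skin. Both lesional groups lay above both baseline groups, and the lesional groups overlapped. Averaged over treatments Ccl22 rose by 1.84 ± 0.38 on the log2 scale (FDR = 0.0512 by edgeR). Ccl17 was scarce, with 2 to 7 counts in baseline mice (0.0935 to 0.395 CPM) and 10 to 23 counts in lesional mice, at 0.534 and 1.06 CPM in CTL and 0.859 and 1.07 CPM in butyrate skin. Its average log2 fold change was 1.83 ± 0.51 (FDR = 0.0959 by edgeR). Between lesional groups Ccl22 differed by -0.06 ± 0.52 and Ccl17 by 0.26 ± 0.62 on the log2 scale.

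Ccl20 was the most raised ligand on average, and its lesional mice varied widely. It was at 2.06 and 1.11 CPM in baseline CTL, 1.41 and 0.842 CPM in baseline butyrate, 4.32 and 11.9 CPM in lesional CTL skin and 16.6 and 6.56 CPM in lesional butyrate skin. Each lesional mouse lay above each baseline mouse, and the lesional groups overlapped. The mean was 5.11-fold higher in CTL mice (FDR = 0.157 by edgeR) and 10.3-fold higher in butyrate-treated mice (FDR = 0.193 by edgeR), and the difference between these responses was 1.00 ± 0.98 on the log2 scale (FDR = 0.842). Its receptor gene Ccr6 was also higher in each lesional than in each baseline mouse, at 1.06 and 0.333 CPM in baseline CTL, 0.338 and 0.280 CPM in baseline butyrate, 4.75 and 2.68 CPM in lesional CTL skin and 3.72 and 2.79 CPM in lesional butyrate skin. Ccr6 rose by 2.88 ± 0.43 on the log2 scale on average (FDR = 0.0235 by edgeR).

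**Figure D2:**
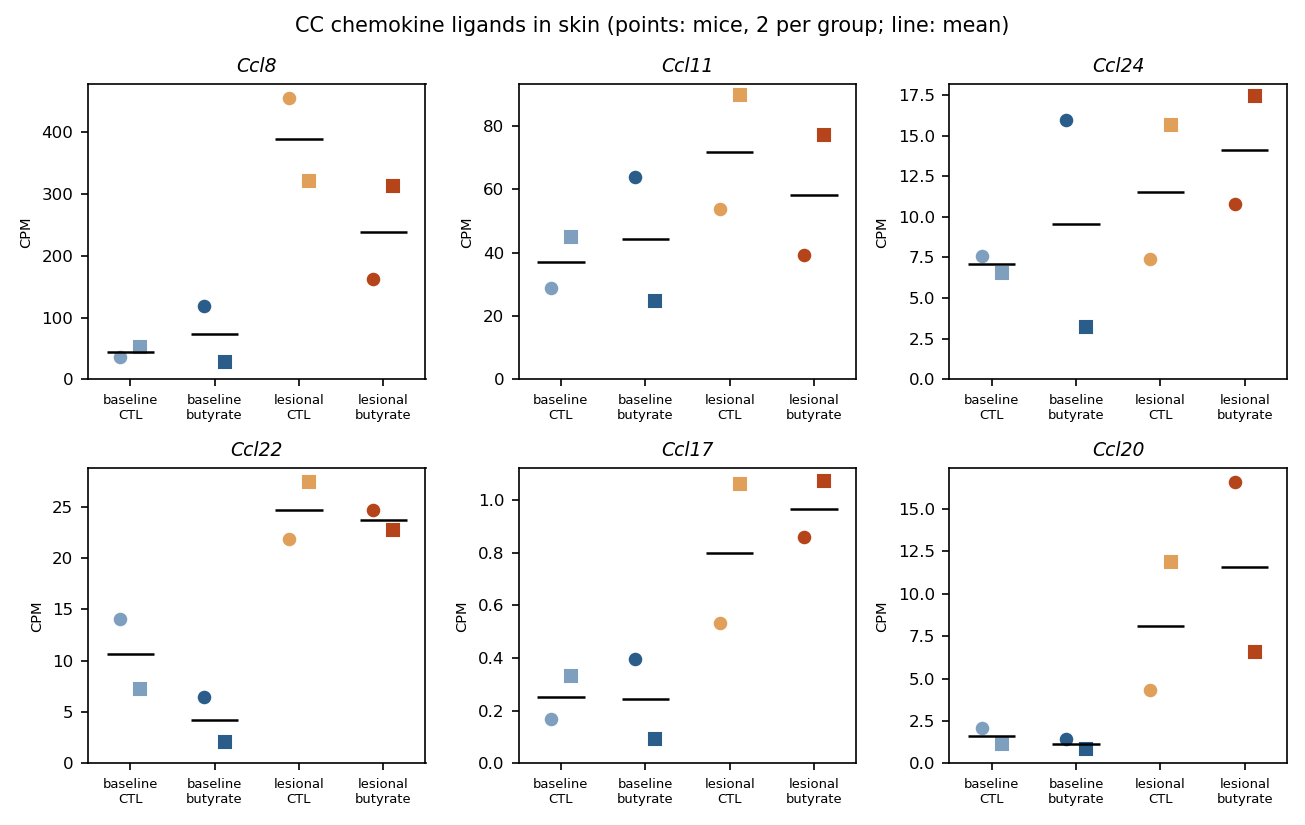
CPM of the 6 ligand genes (y axes, linear and from 0) in each of the 8 mice (points, circle and square for the pair of a group) with the group mean (line). Ccl8, Ccl22, Ccl17 and Ccl20 have both lesional groups above their baseline groups, while Ccl24 overlaps throughout and Ccl11 overlaps between lesional and baseline skin in butyrate-treated mice.

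The main comparison of the study was butyrate against CTL in lesional skin. None of the 10 genes was called in it, and neither was any of the 15163 tested genes (0% called, smallest FDR 0.289), while 734 genes had an unadjusted p under 0.05. The paper itself reports differentially expressed genes in this comparison, by limma-voom at the same FDR and fold-change limits. DESeq2, limma-voom and fits of the 4 lesional mice alone called 0 of the 10 genes as well. The share of all genes called in these fits is not given here, so these counts do not set the 10 genes apart. Groups were apart for 4 of the 10 genes (Ccr4 above, Ccl8, Ccr3 and Ccr7 below), which is near the 44.9% of all genes whose groups were apart. The median log2 fold change of the 10 genes was -0.115, beside -0.005 over all genes. The smallest two-sided p that an exact permutation test can give for 1 gene with 2 mice in each group is 0.333. The ligands other than Ccl8 overlapped between the groups, with log2 fold changes from -0.31 ± 0.55 (Ccl11) to 0.51 ± 0.65 (Ccl20), and for each of these 5 genes an interval of 2 standard errors reaches beyond 2-fold in at least 1 direction.

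Ccr3, the eotaxin receptor, showed the widest gap of the 10 genes between the lesional groups. It had 30 and 77 counts in lesional CTL skin (1.60 and 3.55 CPM) and 12 and 13 counts in lesional butyrate skin (0.573 and 0.605 CPM). In baseline skin it had 7 and 4 counts without butyrate (0.389 and 0.222 CPM) and 15 and 12 counts with it (0.845 and 0.561 CPM). The lesional CTL mice thus lay above the other 6 mice, and the lesional butyrate mice lay within the range of the 4 baseline mice. The lesional difference was -2.12 ± 0.52 on the log2 scale (FDR = 0.737 by edgeR), and 111 of the tested genes had a smaller unadjusted p. The HDM response was 3.06 ± 0.57 in CTL mice (FDR = 0.0604) and -0.26 ± 0.55 in butyrate-treated mice (FDR = 0.879 by edgeR). The test of the difference between these responses gave -3.31 ± 0.80 on the log2 scale, with FDR = 0.84 by edgeR. In that comparison 33 genes had a smaller unadjusted p, and 0 of all tested genes were called (0%). Without baseline butyrate replicate 1 the difference between the responses was -3.01, and without replicate 3 it was -3.58. Without lesional CTL replicate 5, the mouse with 77 counts, the lesional difference was -1.43.

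The defining granule genes of eosinophils were at or near 0. Epx, the eosinophil peroxidase, had 0 counts in all 8 mice, which allows up to 0.169 CPM in a single mouse, and Prg2, the major basic protein, was at most 0.369 CPM. Siglecf, listed under its older symbol Siglec5, was at 1.01 and 1.98 CPM in lesional CTL skin and 0.143 and 0.837 CPM in lesional butyrate skin, but at 1.22 and 0.999 CPM in baseline CTL skin. The summed level of the 8 listed eosinophil genes other than Ccr3 was 33.0 to 46.7 CPM in lesional CTL skin and 33.9 to 44.0 CPM in lesional butyrate skin, most of it Ear2, a ribonuclease also made by macrophages. Averaged over treatments Ear1, Ear2 and Alox15 of this list rose. Fcer1a, a chain of the IgE receptor of mast cells and basophils, was nearer to Ccr3 in its order, at 2.08 and 1.29 CPM in lesional CTL against 0.573 and 0.326 CPM in lesional butyrate skin, and at most 0.187 CPM at baseline. Fcer1a rose in CTL mice (log2 fold change 4.77 ± 0.86, FDR = 0.0529 by edgeR), and its lesional difference was -1.89 ± 0.62 (FDR = 0.914). Of the 8 genes of the mast cell list, Fcer1a included, 3 lay below in both lesional butyrate mice, against 22.5% of all genes. Ms4a2 of that list overlapped, at 2.56 and 1.71 CPM in lesional CTL against 1.575 and 1.86 CPM in lesional butyrate skin. Cpa3 did too, at 116.8 and 87.5 CPM against 101.3 and 104.5 CPM. Basophil genes looked up after these values were seen had like orders in part. Mcpt8, a basophil protease, was at 3.79 and 0.923 CPM in lesional CTL skin and 0.286 and 0.512 CPM in lesional butyrate skin, with 0.0556 CPM or 0 at baseline. Cd200r3 was at 4.22 and 2.45 CPM against 1.43 and 2.19 CPM in the lesional groups. The mouse with the most Ccr3, lesional CTL replicate 5, was the lower of its pair for Fcer1a, Mcpt8 and Cd200r3. Neutrophil genes also moved with the groups, with 7 of 7 tested neutrophil genes lower in both lesional butyrate mice, against 22.5% of all genes. The summed level of the neutrophil list was 1744 to 2820 CPM in lesional CTL against 368 to 797 CPM in lesional butyrate skin. Most of it was S100a8 (1000 and 579 CPM against 265 and 102 CPM) and S100a9 (1465 and 836 CPM against 445 and 169 CPM). Ly6g, Ngp and Camp of that list were at most 0.461 CPM in any mouse. Which cells the S100a8 and S100a9 reads came from was not tested. The part of eosinophils, mast cells, basophils and neutrophils in the Ccr3 values was not tested either.

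Ccr7, which marks dendritic cells that leave the skin, was the one gene of the 10 that the study names in its own plots of lesional skin, so its direction there is not independent evidence. It was at 2.39 and 1.44 CPM in baseline CTL, 1.18 and 0.514 CPM in baseline butyrate, 7.90 and 7.52 CPM in lesional CTL skin and 3.72 and 3.44 CPM in lesional butyrate skin. Both lesional pairs were tight, and butyrate mice lay below CTL mice in both states of the skin. The butyrate difference was -1.10 ± 0.41 in lesional and -1.18 ± 0.46 in baseline skin on the log2 scale, with FDR = 0.961 and FDR = 0.714 by edgeR. The HDM response was 2.01 ± 0.43 in CTL mice (FDR = 0.0804) and 2.08 ± 0.45 in butyrate-treated mice (FDR = 0.191 by edgeR). The difference between the responses was 0.07 ± 0.61, so an interval of 2 standard errors reaches beyond 2-fold in either direction. Without baseline butyrate replicate 1 this difference was 0.76, and without replicate 3 it was -0.41. Both comparisons with lesional CTL skin use the same mice and are not separate evidence.

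The ligands of CCR7 had another order among the groups. Ccl21a, made by lymphatic endothelium, was at 26.3 and 26.5 CPM in baseline CTL, 28.2 and 10.5 CPM in baseline butyrate, 30.8 and 25.4 CPM in lesional CTL skin and 63.3 and 55.9 CPM in lesional butyrate skin. It was above all other mice in lesional butyrate skin, a difference of 1.08 ± 0.41 from lesional CTL on the log2 scale that did not pass (FDR = 0.969 by edgeR). Ccl21a is 1 of several near-identical mouse genes, so reads may be split between copies and this value is uncertain. Ccl19 was at most 0.698 CPM in any mouse and rose on average by 1.81 ± 0.43 (FDR = 0.0633 by edgeR). Ackr4, a receptor that takes up CCL19 and CCL21 without signalling, fell by 1.15 on the log2 scale on average (FDR = 0.092 by edgeR). It was at 68.1 and 49.8 CPM in baseline CTL and 13.2 and 19.0 CPM in lesional CTL skin, and at 44.2 and 17.3 CPM in baseline butyrate and 22.3 and 23.4 CPM in lesional butyrate skin, where the groups overlapped (log2 fold change -0.43 ± 0.43, FDR = 0.728 by edgeR).

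**Figure D3:**
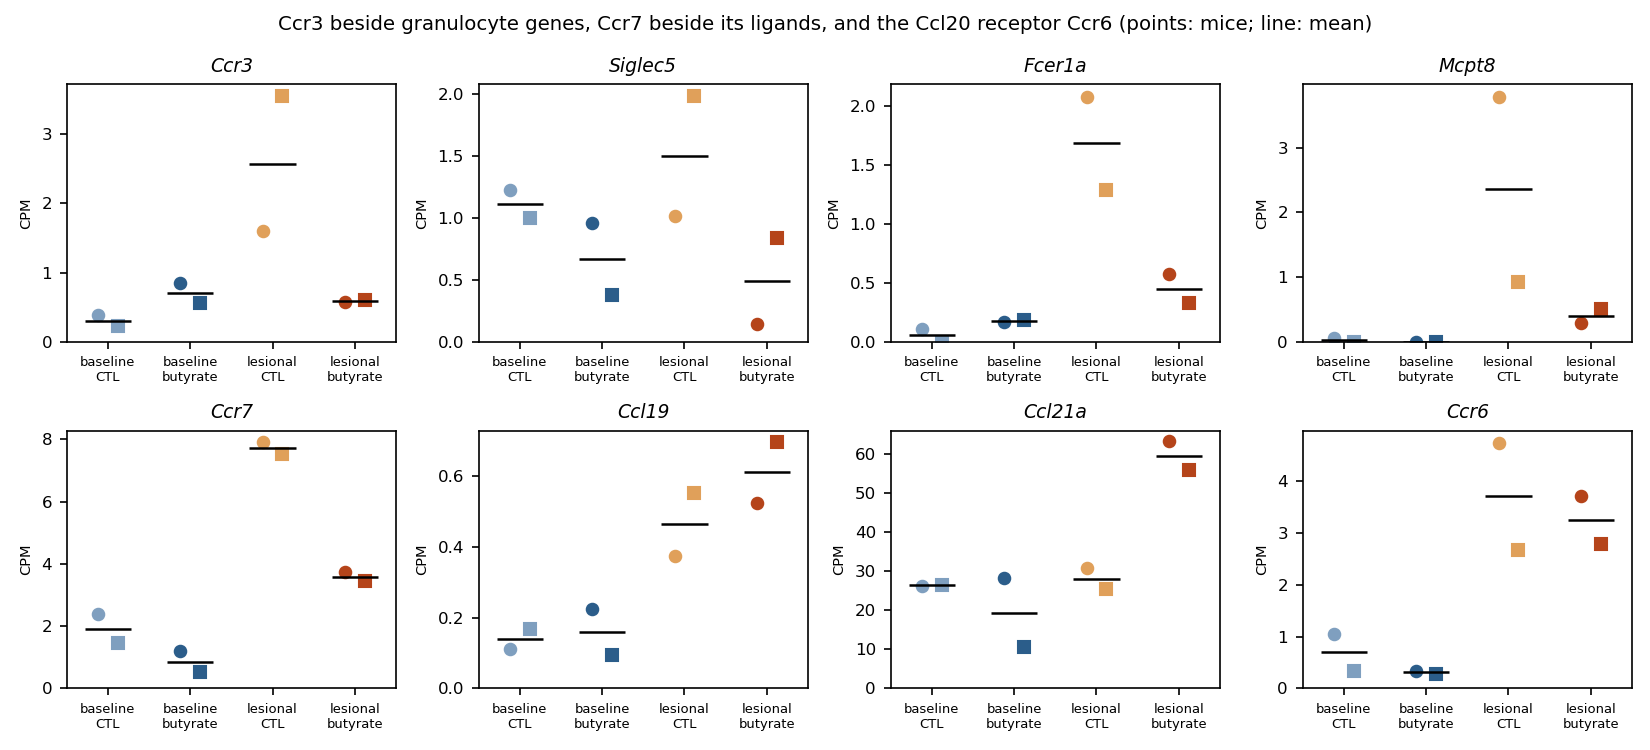
CPM (y axes, linear and from 0) of Ccr3 with the granulocyte genes Siglec5 (Siglecf), Fcer1a and Mcpt8, of Ccr7 with its ligands Ccl19 and Ccl21a, and of the Ccl20 receptor Ccr6 in each of the 8 mice (points) with group means (lines). Ccr3, Fcer1a and Mcpt8 are highest in the lesional CTL mice, Ccr7 is at 7.90 and 7.52 CPM there, and Ccl21a is highest in the lesional butyrate mice at 63.3 and 55.9 CPM.

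Other genes of dendritic cells were set beside Ccr7. Of 13 tested genes of migratory and activated dendritic cells besides the chemokine genes above, 2 rose in CTL mice (Il4i1, an amino acid oxidase, and Pdcd1lg2, which encodes PD-L2) and 0 in butyrate-treated mice, and 3 rose on average, with Flt3 as the third. The summed level of the 13 genes was 248 to 269 CPM in lesional CTL skin and 217 to 234 CPM in lesional butyrate skin. Il4i1 was at 13.2 and 11.7 CPM against 7.16 and 7.63 CPM, and Fscn1, a protein of dendrite formation, at 80.9 and 72.4 CPM against 43.5 and 49.7 CPM in these groups. Fscn1 was also at 65.2 CPM in baseline butyrate replicate 3, where Ccr7 was lowest of all mice. Of the 13 genes, 7 lay below and 2 above in both lesional butyrate mice, against 22.5% and 22.4% of all genes. Those above were Nudt17, at 23.8 and 19.7 CPM in lesional CTL against 38.0 and 30.2 CPM in lesional butyrate skin, and Zbtb46, at 8.70 and 8.95 CPM against 10.3 and 10.7 CPM. Cd83 overlapped between the lesional groups, with 10.8 and 15.7 CPM against 11.4 and 9.26 CPM. The summed Langerhans cell genes were 2345 to 2431 CPM in lesional CTL skin and 2254 to 2496 CPM in lesional butyrate skin. The Langerhans cell gene Itgae and 2 genes of conventional dendritic cells (Flt3 and Cd209a) rose on average.

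Ccr4, the receptor of CCL17 and CCL22, was the one gene of the 10 with a negative HDM log2 fold change in CTL mice, and its fitted difference was 0.53 ± 0.62 (log2) in butyrate-treated mice. It was at 11.8 and 8.77 CPM in baseline CTL, 10.4 and 2.57 CPM in baseline butyrate, 5.18 and 2.95 CPM in lesional CTL skin and 9.5 and 9.21 CPM in lesional butyrate skin. Lesional CTL mice lay below baseline CTL mice (log2 fold change -1.34 ± 0.63, FDR = 0.298 by edgeR) and below lesional butyrate mice (butyrate against CTL 1.2 ± 0.63, FDR = 1 by edgeR). The difference between the HDM responses was 1.87 ± 0.89 on the log2 scale (FDR = 0.84 by edgeR). Without baseline butyrate replicate 1 this difference was 3.19, and without replicate 3 it was 1.2. Genes of T cells were mixed beside it. Of 12 tested genes of T helper 2 and regulatory T cells, 5 rose in CTL mice (Cd4, Il13, Foxp3, Il2ra and Icos), 0 were called in butyrate-treated mice, and 6 rose on average, with Ctla4 as the sixth. In CTL mice 10 of the 12 lay above baseline in both lesional mice, against 36.7% of all genes, and 2 lay below, against 38.5%. These 2, Gata3 and Ikzf2, also lay above lesional CTL in both lesional butyrate mice, as Ccr4 did. Ikzf2, listed as a regulatory T cell factor, was at 72.9 and 57.6 CPM in baseline CTL, 32.2 and 33.9 CPM in lesional CTL and 40.1 and 35.8 CPM in lesional butyrate skin. In baseline CTL skin Foxp3 was at only 0.778 and 0.666 CPM, and which cells the Ikzf2 reads came from was not tested. Gata3, which skin epithelium also expresses, was at 173 and 155 CPM, 96.3 and 92.1 CPM, and 123 and 147 CPM in the same order. Foxp3 was at 8.54 and 5.68 CPM in lesional CTL skin, 5.3 and 3.58 CPM in lesional butyrate and at most 1.18 CPM in baseline skin, where Ccr4 was mostly higher than in lesional CTL skin. The summed level of this list was 196 to 250 CPM in lesional CTL skin and 236 to 238 CPM in lesional butyrate skin, with Gata3 its largest member in each of these mice.

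Ccr8, the receptor of CCL8 and CCL1, was low and variable. It was at 1.06 and 0.555 CPM in baseline CTL, 1.18 and 0.281 CPM in baseline butyrate, 3.20 and 0.877 CPM in lesional CTL skin and 2.20 and 1.4 CPM in lesional butyrate skin. The lesional CTL mice were 60 and 19 counts, apart by more than the groups were, and no comparison passed. In butyrate-treated mice both lesional mice lay above both baseline mice, and the other groups overlapped. Across the 8 mice Ccr8 was most like Skap1 and Cd3d (Pearson r of log2 levels 0.952 and 0.943, n = 8 mice that share their group structure), of 14187 genes compared. Cd3d, a T cell receptor chain, was at 6.14 and 2.31 CPM in lesional CTL skin and 3.82 and 2.65 CPM in lesional butyrate skin. Ccl1 rose on average by 1.51 ± 0.33 on the log2 scale (FDR = 0.0561 by edgeR) and was at 1.23 and 0.692 CPM in lesional CTL skin and 1.15 and 1.02 CPM in lesional butyrate skin.

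**Figure D4:**
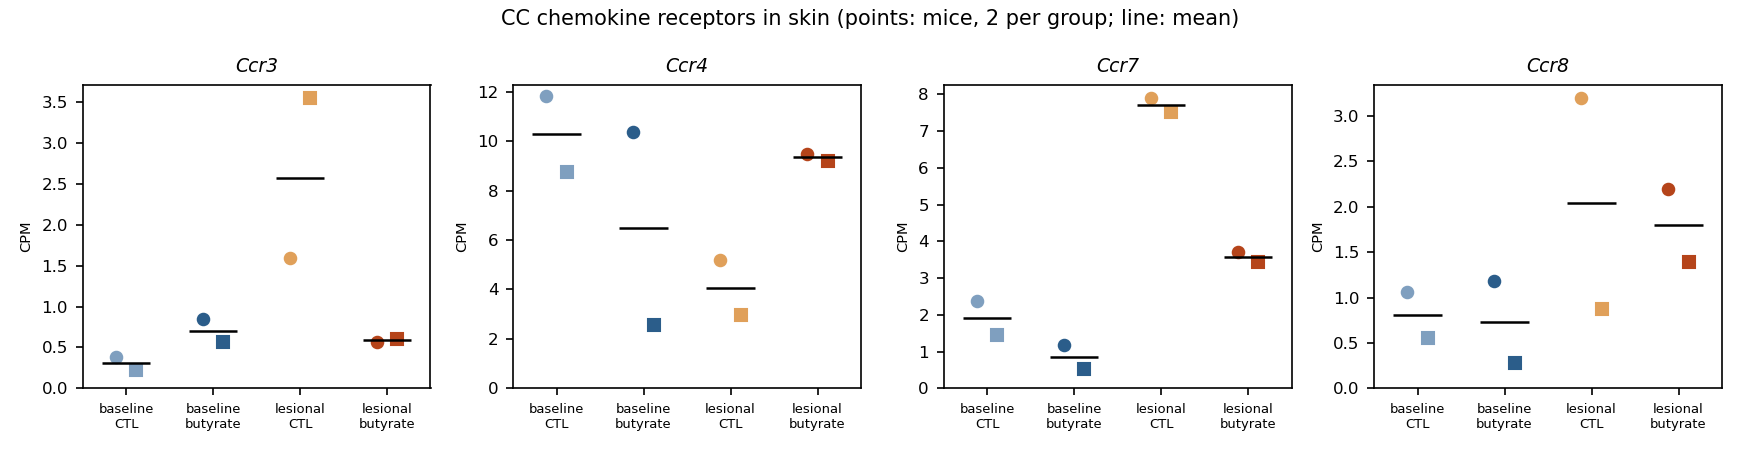
CPM of the 4 receptor genes (y axes, linear and from 0) in each of the 8 mice (points) with group means (lines). Ccr3 is highest in both lesional CTL mice, Ccr4 is lowest in lesional CTL skin apart from baseline butyrate replicate 3 at 2.57 CPM, and Ccr7 has both lesional butyrate mice between the baseline and the lesional CTL mice.

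**Figure D5:**
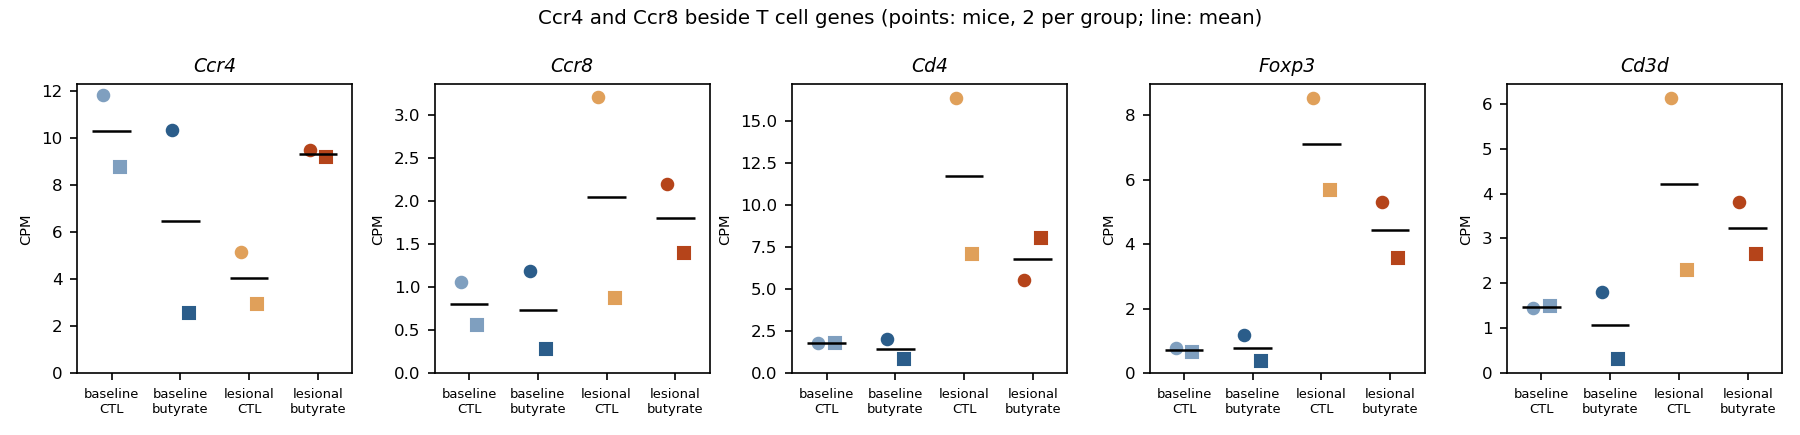
CPM (y axes, linear and from 0) of Ccr4 and Ccr8 beside the T cell genes Cd4, Foxp3 and Cd3d in each of the 8 mice (points) with group means (lines). Cd4 and Foxp3 are higher in all lesional mice than in all baseline mice, while Ccr4 is not.

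In skin without allergen, 0 of the 10 genes were called between butyrate and CTL mice, and 0% of all tested genes were, with 529 genes at an unadjusted p under 0.05 in edgeR. DESeq2 and limma-voom also called 0 of the 10, with no share of all genes given for these fits. The groups were apart for 3 of the 10 genes, against 29.8% of all genes. Ccl22 (log2 fold change -1.32 ± 0.54) and Ccr7 lay lower and Ccr3 (1.19 ± 0.60) higher with butyrate, all at FDR = 0.714 by edgeR. Without baseline butyrate replicate 3 these were -0.73 for Ccl22, -0.69 for Ccr7 and 1.45 for Ccr3. Without baseline butyrate replicate 1, which leaves the low replicate 3 alone in its group, they were -2.315 for Ccl22, -1.86 for Ccr7 and 0.886 for Ccr3. Ccr4 was then at -1.98.

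The partner genes of the system were described from a list of 18 listed genes, of which 16 were tested. On average 4 of them rose (Ccl1, Ccl19, Ccl28 and Ccr6) and Ackr4 fell, while 0 were called in CTL mice alone, in butyrate-treated mice alone or between the lesional groups. Ccl28, an epithelial ligand of CCR3 and CCR10, was at 2.83 and 2.68 CPM in lesional CTL skin and 1.34 and 1.81 CPM in lesional butyrate skin. Ccl27a, the keratinocyte ligand of CCR10, was at 23.0 and 22.0 CPM in lesional CTL skin and 37.4 and 31.4 CPM in lesional butyrate skin (log2 fold change 0.61 ± 0.16, FDR = 0.757 by edgeR). Ccr10 itself was at most 0.480 CPM. Ccl5 overlapped between the lesional groups, at 1.07 and 1.38 CPM against 0.668 and 1.58 CPM, and so did the scavenging receptor Ackr2, at 6.99 and 14.7 CPM against 12.6 and 17.3 CPM.

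The cytokines known to raise these chemokines were covered by other lists. Of 14 tested type 2 cytokine and STAT6 genes, 6 rose in CTL mice (Il5, Il13, Il4ra, Il13ra2, Il33 and Il1rl1), 1 in butyrate-treated mice (Il13ra2) and 0 were called between the lesional groups, where the median log2 fold change was -0.21. Il13 was at 3.63 and 1.61 CPM in lesional CTL skin and 2.39 and 1.86 CPM in lesional butyrate skin, and Il4 at 1.23 and 0.507 CPM against 0.286 and 0.0465 CPM. Il4ra, the shared receptor chain of IL-4 and IL-13, was at 272 and 262 CPM against 104 and 91.1 CPM. Ccl17 and Ccl22 overlapped between the lesional groups, as Il13 did, while Il4 and Il4ra did not. The lowest Il4 value, 0.0465 CPM, lies below the floor of 3 counts. Of 15 tested IL-17, TNF and NF-kB genes, Tnf and Il1b rose in CTL mice and Il17f, Tnf and Il1b on average. Il17a had 0 counts in all baseline mice and was at 0.961 and 0.231 CPM in lesional CTL skin and 0.239 and 0.186 CPM in lesional butyrate skin. Il1b was at 132 and 136 CPM against 19.9 and 25.5 CPM in the lesional groups, and Ccl20 overlapped between them. The part of these cytokines in the values of the ligand genes was not tested.

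The other cell type lists held these calls. Mast cell genes rose in CTL mice for 3 of 8 (Cma1, Tpsb2 and Fcer1a) and on average for 6 of 8 (also Cpa3, Mcpt4 and Tpsab1). All 7 tested neutrophil genes (S100a8, S100a9, Csf3r, Cxcr2, Retnlg, Mmp9 and Trem1) rose in CTL mice and 2 of them (S100a9 and Cxcr2) in butyrate-treated mice. Of the macrophage genes Arg1 fell in both and Chi3l3 (Chil3) rose on average. The injury keratins Krt6a, Krt6b and Krt16 rose in CTL mice and Krt16 also in butyrate-treated mice, Pdpn of the lymphatic endothelium list rose in CTL mice, the adipocyte hormone Lep fell on average, and 0 fibroblast or muscle genes were called. None of the genes of these lists was called between the lesional groups.

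Genes whose levels ran most like each of the others over the 8 mice are named as a description of these libraries, which share groups and composition. Ccl8 ran with Cpxm1, Gpr183 and Glipr1 (r from 0.975 to 0.983) and Ccl11 with Ftl1, Gab3 and C3. Ccl22 ran with Hpdl, Awat1 and Dgat2l6 (r from 0.989 to 0.992), Ccl24 with Tbx18, Zfp27 and Nsg1, and Ccl20 with Syvn1, 1110038F14Rik and Adss. Ccr3 ran with Glis3, Ahcyl2 and Ifnar1 (r from 0.945 to 0.963), Ccr4 with Tmem164, Pgrmc1 and Abcd3, Ccr7 with Serpinb6c, Clock and Ifitm1 (r from 0.989 to 0.997), and Ccr8 also with Gpr162. Ccl17 was under a mean of 1 CPM and was not included.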

How the data were processed

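The authors aligned reads to GRCm38 with STAR (2.5.2), used featureCounts to count them per gene, and deposited raw counts of protein-coding genes without normalization, and the reverse-stranded table was used here. Groups came from the sample labels, and the design text of the series counts more samples than the 8 analysed here. CPM used TMM-scaled library sizes (0.944 to 1.04). The test was edgeR 4.0.16 (R 4.3.3) glmQLFit with robust estimation and glmQLFTest on all 8 mice, with filterByExpr (minimum count 10), a prior count of 0.125 and Benjamini-Hochberg adjustment over 15163 genes. The common biological coefficient of variation was 0.276, with 4 residual degrees of freedom. Counting limits values near 3 counts. Alternatives were DESeq2 1.42.0, limma-voom (limma 3.58.1), other scalings, filters, thresholds and sets of mice. Fits were tested on simulated data. Gene positions came from GENCODE vM21. Likeness was Pearson r of log2(CPM + 0.5) over genes with a mean of at least 1 CPM.

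The rule for named genes took all 10 genes, their known partners, every list gene called in a comparison, and the 3 genes most like each gene. The genes, lists and tests were chosen with earlier results of these data known, and Mcpt8 and Cd200r3 were added after the values were seen. P-values measure the spread between these mice.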

Additional observations from a re-analysis of the deposited data

Results flagged for a closer look

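Ccr3 was singled out because its butyrate difference pointed in opposite directions in the 2 states of the skin, with groups apart in both. The log2 fold change of butyrate against CTL was -2.12 in lesional skin, where both butyrate mice lay below both CTL mice, and 1.19 in baseline skin, where both lay above. The test of the difference itself gave -3.31 with FDR = 0.84 by edgeR and did not pass. Baseline values were 4 to 15 counts per mouse.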

How the results depend on the processing

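No paired analysis was possible because no 2 groups that were compared have more than 1 replicate number in common. In butyrate against CTL lesional skin 0 of the 10 genes were called under every alternative run. In CTL mice the HDM count of 3 became 7 with only the groups compared, in edgeR or limma-voom (the latter added after seeing the data), 7 without the baseline butyrate mice and 0 at FDR below 0.05. The share of all tested genes called in CTL mice moved too, from 3.58% in the main fit to 12.4% without the baseline butyrate mice. Changes in the counts are therefore not read as particular to the 10 genes. In butyrate-treated mice the count of 0 became 3 with DESeq2 (Ccl22, Ccl20 and Ccr7). The average count of 6 became 3 at FDR below 0.05 (Ccl8, Ccl20 and Ccr7). Leaving out 1 mouse at a time, which in a group of 2 leaves a lone mouse assumed to vary like the others, the counts ran from 0 to 7 in CTL mice, 0 to 7 in butyrate-treated mice, 0 to 9 on average, 0 to 3 for butyrate in baseline skin and 0 to 3 for the difference between the butyrate effects. The causes were not tested.

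Of 998 values of single genes under alternatives, 46 turned direction, 57 lost and 42 gained a call. With limma-voom the log2 fold change of butyrate turned to 0.092 for Ccr8 in lesional skin (0.097 with only the groups compared) and to -0.02 for Ccl24 in baseline skin (0 with only the groups compared), and the difference between the butyrate effects to 0.35 for Ccl24 and 0.51 for Ccr8. Leaving out 1 mouse, the lesional butyrate difference ran from -0.87 to 0.11 for Ccl11, -0.14 to 0.85 for Ccl17, -0.21 to 0.12 for Ccl22, -0.15 to 0.93 for Ccl24, -0.30 to 1.42 for Ccl20 and -0.83 to 1.03 for Ccr8. In baseline skin it ran from -0.63 to 1.43 for Ccl8, -0.57 to 0.79 for Ccl11, -1.34 to 0.65 for Ccl17, -1.11 to 1.17 for Ccl24, -0.88 to 0.021 for Ccl20, -1.98 to 0.01 for Ccr4 and -1.48 to 0.55 for Ccr8. The HDM response with butyrate ran from -0.16 to 1.22 for Ccl11, -0.17 to 2.11 for Ccl24, -0.52 to 0.048 for Ccr3 and -0.15 to 1.84 for Ccr4, and the average response from -0.75 to 0.24 for Ccr4. The difference between the butyrate effects ran from -1.13 to 0.26 for Ccl11, -0.39 to 1.59 for Ccl17, -0.88 to 1.4 for Ccl24, -0.41 to 0.76 for Ccr7 and -0.72 to 1.31 for Ccr8. Depth limits Ccl17 and Ccr3, with as few as 2 and 4 counts in a mouse.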
